A study of Mus musculus with 7 samples.

Results

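The E proteins and their Id inhibitors were examined in open chromatin of HPC7, a mouse hematopoietic progenitor cell line that was derived from embryonic stem cells by Lhx2 expression and that grows in stem cell factor. The 7 genes Tcf3, Tcf4, Tcf12, Id1, Id2, Id3 and Id4 were taken by name out of 21853 protein-coding genes. Every peak of the 7 bulk ATAC-seq lists that overlapped a gene body or the 50 kb on either side of it was assigned to that gene. Peaks that overlapped by at least 1 bp between libraries were merged into 1 open chromatin region (OCR), and 193 of the 144931 merged OCRs of the series fell in these windows. In bulk ATAC-seq the Tn5 transposase cuts accessible DNA, so that reads pile up where chromatin is open. All 7 libraries carry the same labels, HPC7 cells with no stated treatment, allele or time point, and the study describes them as independent culture batches of 1 line. Individual peaks are named with the letters VD in libraries 1, 2 and 4 and with EtOH in the remaining 4 libraries. No label says what these letters mean, so no condition was drawn from them.

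E proteins are basic helix-loop-helix (bHLH) transcription factors that bind the E-box, the letters CANNTG, as dimers with each other or with cell type specific bHLH partners such as Tal1. Id proteins have the helix-loop-helix but no basic region, so that an E protein bound to an Id protein cannot bind DNA. In blood cells the balance between both families is known to bear on the choice between progenitor, B cell, T cell and myeloid states.

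The lists held between 84593 peaks in HPC7-6 and 132852 in HPC7-1, and the background that the fold enrichments imply was 20.4 reads in HPC7-1 and between 4.44 and 7.45 reads in the other libraries. Intensity is given as the fold enrichment of the deposited lists, meaning the reads at a summit over the background reads of that library, with 1 read added to both, and as the percentile among all peaks of the library. Fold enrichments were not normalized between libraries, so genes were compared within a library. Of the progenitor markers, 8 of 8 (Kit, Gata2, Tal1, Lmo2, Ptprc, Runx1, Myb and Spi1) had a promoter peak in all 7 libraries. None of the 4 B cell, 3 T cell, 2 endothelial and 2 epithelial marker genes had a promoter peak in any library. Of the 2 hepatocyte markers, Apoa1 had one in 2 libraries, and both stromal markers (Col1a1 and Pdgfrb) had one in all 7, with mean fold enrichments of 14.0 and 116.

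Sequence at the summit is shown for 6 OCRs on which the comparisons below turn and whose summit lies outside any exon of GENCODE M21 and RefSeq. Not every such OCR is shown. No run was taken from the Tcf4 window, whatever its exons, and the upstream OCR nearer to the Id2 start was left out. Each run is 151 bases of the GRCm38.p6 forward strand, centred on the median summit. Capitals mark the E-box CANNTG, the letters GATAA that GATA factors bind, TGTGGT of the RUNX factors and GGAAGT of the ETS factors, each on either strand. The promoter summit of Tcf3 is at chr10:80434007-80434157. The strongest OCRs outside promoters are shown for Tcf3 (chr10:80475441-80475591), Tcf12 (chr9:72133124-72133274), Id1 (chr2:152741831-152741981) and Id3 (chr4:136178030-136178180, in an intron of E2f2). The farther upstream OCR of Id2 (chr12:25119416-25119566) is shown because its values differed between the libraries with different peak names. Percentiles separated in that way, with VD higher, in 1.25% of the 80 OCRs of these windows in all 7 libraries, beside 1.63% over the series.
Tcf3 promoter: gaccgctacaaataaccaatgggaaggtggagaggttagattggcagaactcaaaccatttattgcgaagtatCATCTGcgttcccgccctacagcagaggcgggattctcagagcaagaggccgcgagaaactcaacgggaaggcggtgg
Tcf3 upstream: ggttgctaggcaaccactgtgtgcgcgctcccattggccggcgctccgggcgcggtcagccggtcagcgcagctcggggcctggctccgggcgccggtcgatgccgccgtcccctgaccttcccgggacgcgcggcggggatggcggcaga
Tcf12 upstream: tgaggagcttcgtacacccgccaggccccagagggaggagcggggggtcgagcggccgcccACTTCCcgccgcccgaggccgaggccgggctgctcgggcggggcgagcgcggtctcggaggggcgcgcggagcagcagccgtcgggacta
Id1 downstream: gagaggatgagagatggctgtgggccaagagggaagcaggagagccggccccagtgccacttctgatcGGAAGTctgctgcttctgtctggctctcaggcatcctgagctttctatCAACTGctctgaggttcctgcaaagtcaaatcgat
Id3 downstream: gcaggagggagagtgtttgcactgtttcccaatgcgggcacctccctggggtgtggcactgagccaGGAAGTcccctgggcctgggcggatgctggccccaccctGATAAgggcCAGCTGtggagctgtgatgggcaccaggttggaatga
Id2 upstream: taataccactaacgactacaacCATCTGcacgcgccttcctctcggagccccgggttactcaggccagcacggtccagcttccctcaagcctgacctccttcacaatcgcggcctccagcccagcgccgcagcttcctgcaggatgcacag
The upstream Tcf3 run held none of the searched letters, and the upstream Tcf12 run held a single ETS match. The Id3 run held an ETS, a GATA and an E-box match (CAGCTG) within its 151 bases.

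Of the 7 genes, 6 had an open promoter in every library, and Id4 had none in any. A promoter peak was one that overlapped the 1 kb on either side of the start of any protein-coding transcript of the gene. Among all protein-coding genes, 11916 of 21853 (54.5%) had a promoter peak in all 7 libraries and 8737 (40.0%) had none in any library. Id4, an Id family member best known from neural and mammary tissue, had a single OCR in its 105 kb window. That OCR (chr13:48273799-48274049), 12.7 kb from the Id4 start and overlapping the non-coding gene A330048O09Rik, was called in 3 libraries, with fold enrichments of 2.48 in HPC7-1, 3.79 in HPC7-4 and 2.91 in HPC7-8.

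Tcf3, which encodes E12 and E47, had the highest mean promoter intensity. Taking the libraries by number (1, 2, 4, 5, 6, 7, 8), its promoter fold enrichments were 157, 112, 124, 165, 95.3, 98.9 and 119, which rests on between 608 and 3365 reads at the summit. The mean was 124 ± 27.1 (SD, n = 7), at the 97.1 ± 0.668 percentile of the peaks of a library. HPC7-6 was the lowest library here and at the promoters of the other 5 genes, and either HPC7-1 or HPC7-5 was the highest at all 6.

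Id2, an inhibitor used by innate lymphoid and myeloid cells, was close to Tcf3. Its promoter values were 122, 98.7, 134, 140, 69.1, 95.8 and 127 in the libraries in the same order, with a mean of 112 ± 25.5 (96.3 percentile). Tcf4, which encodes E2-2 and is required for plasmacytoid dendritic cells, gave 102, 77.9, 90.8, 102, 60.4, 70.2 and 87.7, with a mean of 84.4 ± 15.8 (94.0 percentile). The values of Id2 and Tcf4 overlapped across libraries, but Id2 was the higher in each of them.

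Id3 and Id1, both induced by BMP signalling, had nearly the same promoter intensity. Id3 gave 76.1, 62.1, 67.3, 89.1, 47.4, 62.2 and 79.4, with a mean of 69.1 ± 13.7 (92.1 percentile). Id1 gave 85.4, 54.6, 61.1, 86.8, 45.7, 57.8 and 72.5, with a mean of 66.3 ± 15.8 (91.5 percentile). Tcf12, which encodes the E protein HEB, was the lowest of the 6 with 52.6, 43.4, 35.5, 40.0, 27.4, 37.1 and 39.0, a mean of 39.3 ± 7.69 (86.5 percentile). The shared promoter OCRs of the series (12566 merged OCRs within 1 kb of a coding start and with a peak in all 7 libraries) had a median of the mean fold enrichment of 67.0, which Tcf3, Id2, Tcf4 and Id3 exceeded and Id1 (66.3) and Tcf12 did not. Set against the promoters of all 21853 protein-coding genes, where a gene without a peak counts as 0, Tcf3 ranked at the 86.6 percentile, Id2 at 83.2, Tcf4 at 74.3, Id3 at 68.3, Id1 at 67.0 and Tcf12 at 56.9.

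**Figure D1:**
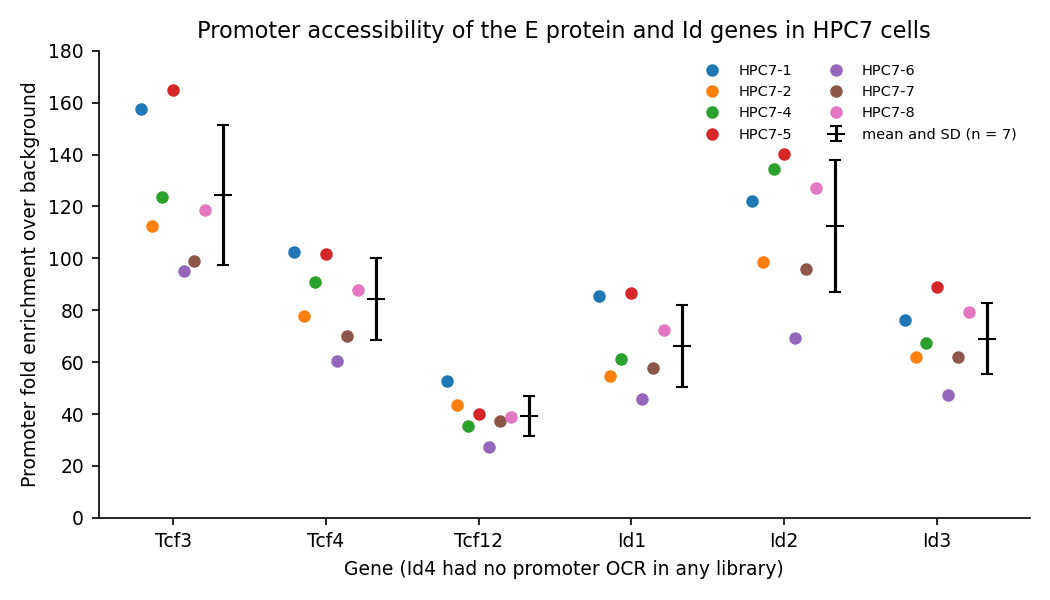
Promoter fold enrichment over background (linear axis) for each library (coloured points) with the mean and SD over 7 libraries (black). Tcf3 and Id2 were the highest, with means of 124 and 112, and Tcf12 the lowest at 39.3, while Id4 had no promoter peak.

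The order of the promoters was tested over the 7 libraries on the ratio within each library, with an exact two-sided permutation test that flips the sign of every library's log2 ratio. Id4 gave no ratio, so 15 pairs of 6 genes were tested, and 13 differed (Benjamini-Hochberg adjusted p = 0.0180 for each, exact permutation p = 0.0156, the smallest the design allows). Tcf3 exceeded Tcf4 by a factor of 1.47 and Tcf12 by 3.16, in 7 of 7 libraries each. Id2 exceeded Tcf4 by 1.32, Tcf4 exceeded Id3 by 1.22, and Id1 exceeded Tcf12 by 1.67, again in every library. A pair of neighbours at the top and one further down did not differ beyond their spread. Tcf3 to Id2 had a ratio of 1.11 (range 0.922 to 1.38), with Tcf3 higher in 5 of 7 libraries (exact permutation p = 0.125, adjusted p = 0.134). Id3 to Id1 had a ratio of 1.05 (range 0.890 to 1.14), with Id3 higher in 6 of 7 libraries (exact permutation p = 0.172). HPC7-1 was the only library in which Id1 was the higher. Without it Id3 was higher in each of the other 6 libraries, where the test can only give its smallest p (adjusted p = 0.0335, exact permutation test). Leaving out that library therefore decides nothing about this pair. With promoters of 3 kb the mean ratio turned to favour Id1.

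As families, the E protein and Id promoters did not differ beyond the spread between libraries. The mean log10 fold enrichment was 1.86 ± 0.0813 over Tcf3, Tcf4 and Tcf12 and 1.89 ± 0.0973 over Id1, Id2 and Id3 (SD, n = 7). The difference, E protein minus Id, was -0.0298 ± 0.0416, positive in 3 libraries and negative in 4 (exact sign-flip permutation p = 0.125, two-sided). It was -0.0474 in the 4 libraries with EtOH in their peak names and -0.00633 in the 3 with VD, and the difference between these values was not tested. Id4 has no value in this comparison.

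Several of the genes have alternative starts, and these were open to different degrees. Tcf4, whose many first exons give isoforms with different amino termini, has 44 coding starts in 10 clusters. The OCR over its 5′-most starts (chr18:69343566-69347011) had fold enrichments of between 60.4 and 102. An internal promoter OCR at starts 249.6 kb into the gene (chr18:69591318-69594250) had values between 34.1 and 53.8, with a mean of 45.8 ± 6.99. The ranges did not overlap. A further 4 clusters with 16 starts, which began between 156 and 178 kb into the gene, had no peak within 1 kb in any library. Tcf12 showed the same arrangement on a smaller scale, with 39.3 at its 5′ promoter (chr9:72110485-72112730) and 11.2 ± 2.93 at an internal start 215 kb into the gene (chr9:71895902-71896807). A start 189 kb into Tcf12 had no peak in any library. Tcf3 had an internal promoter OCR (chr10:80421642-80422207) at 8.56 ± 1.89. Id1, Id2 and Id3 each had 1 promoter OCR over all their coding starts.

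Library support in the windows was close to that of the series. Of the 193 OCRs, 80 (41.5%) had a peak in all 7 libraries, beside 46.2% of all merged OCRs, 65 had a peak in 2 to 6 libraries and 48 in 1. HPC7-1, the library with the longest peak list and the highest background in reads, held 43 of those 48. The same share over all merged OCRs of the series was not computed, so this count shows nothing particular to these windows. OCRs in all 7 libraries had a median fold enrichment of 14.7, against 3.63 for those in 2 to 6 libraries and 2.34 for those in 1. Of the 15 promoter OCRs, 9 were in all 7 libraries (60.0%), beside 78.6% of all merged OCRs within 1 kb of a coding start, and the other 6 lay at secondary starts of Tcf3 and Tcf4. Outside promoters the numbers were 29 of 78 intronic, 2 of 4 exonic, 12 of 27 in another gene and 23 of 62 intergenic OCRs, beside 42.2% of all merged OCRs outside promoters. Of the 7 OCRs at a promoter of another gene, 5 were in all 7 libraries.

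The genes differed in how their OCRs were laid out. Tcf12 had 55 OCRs in a window of 369 kb and Tcf4 had 46 in 446 kb, most of them intronic (42 and 34). Tcf3 had 40 in only 124 kb, which at 32.2 OCRs per 100 kb lay at the 97.5 percentile of the windows of all protein-coding genes. Id1 had 26 (25.7 per 100 kb, 91.7 percentile), Id3 had 17 (16.6 per 100 kb, 71.7 percentile) and Id2 had 8 (7.74 per 100 kb, 41.3 percentile). Id4 with its 1 OCR lay at the 14.0 percentile. Tcf12 (14.9 per 100 kb) lay at the 66.2 percentile and Tcf4 (10.3 per 100 kb) at the 50.3 percentile. Counting OCRs in all 7 libraries alone, the percentiles were 91.2 for Tcf3, 87.9 for Id1, 79.2 for Id3, 58.5 for Tcf12, 42.5 for Id2 and 38.9 for Tcf4. The counts of the short genes moved with the flank. From a flank of 25 kb to one of 100 kb, they went from 25 to 68 for Tcf3, from 11 to 44 for Id1, from 5 to 14 for Id2 and from 7 to 30 for Id3, but from 45 to 46 for Tcf4 and from 52 to 55 for Tcf12. The Id genes are 1.16 to 4.80 kb long and had no intronic OCR, so their non-promoter OCRs all lay in the flanks or in neighbouring genes. An OCR within 1 kb of a coding start counted as promoter first. These stretches take up much of Id1, Id2 and Id3, which left little room for an intronic OCR there.

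**Figure D2:**
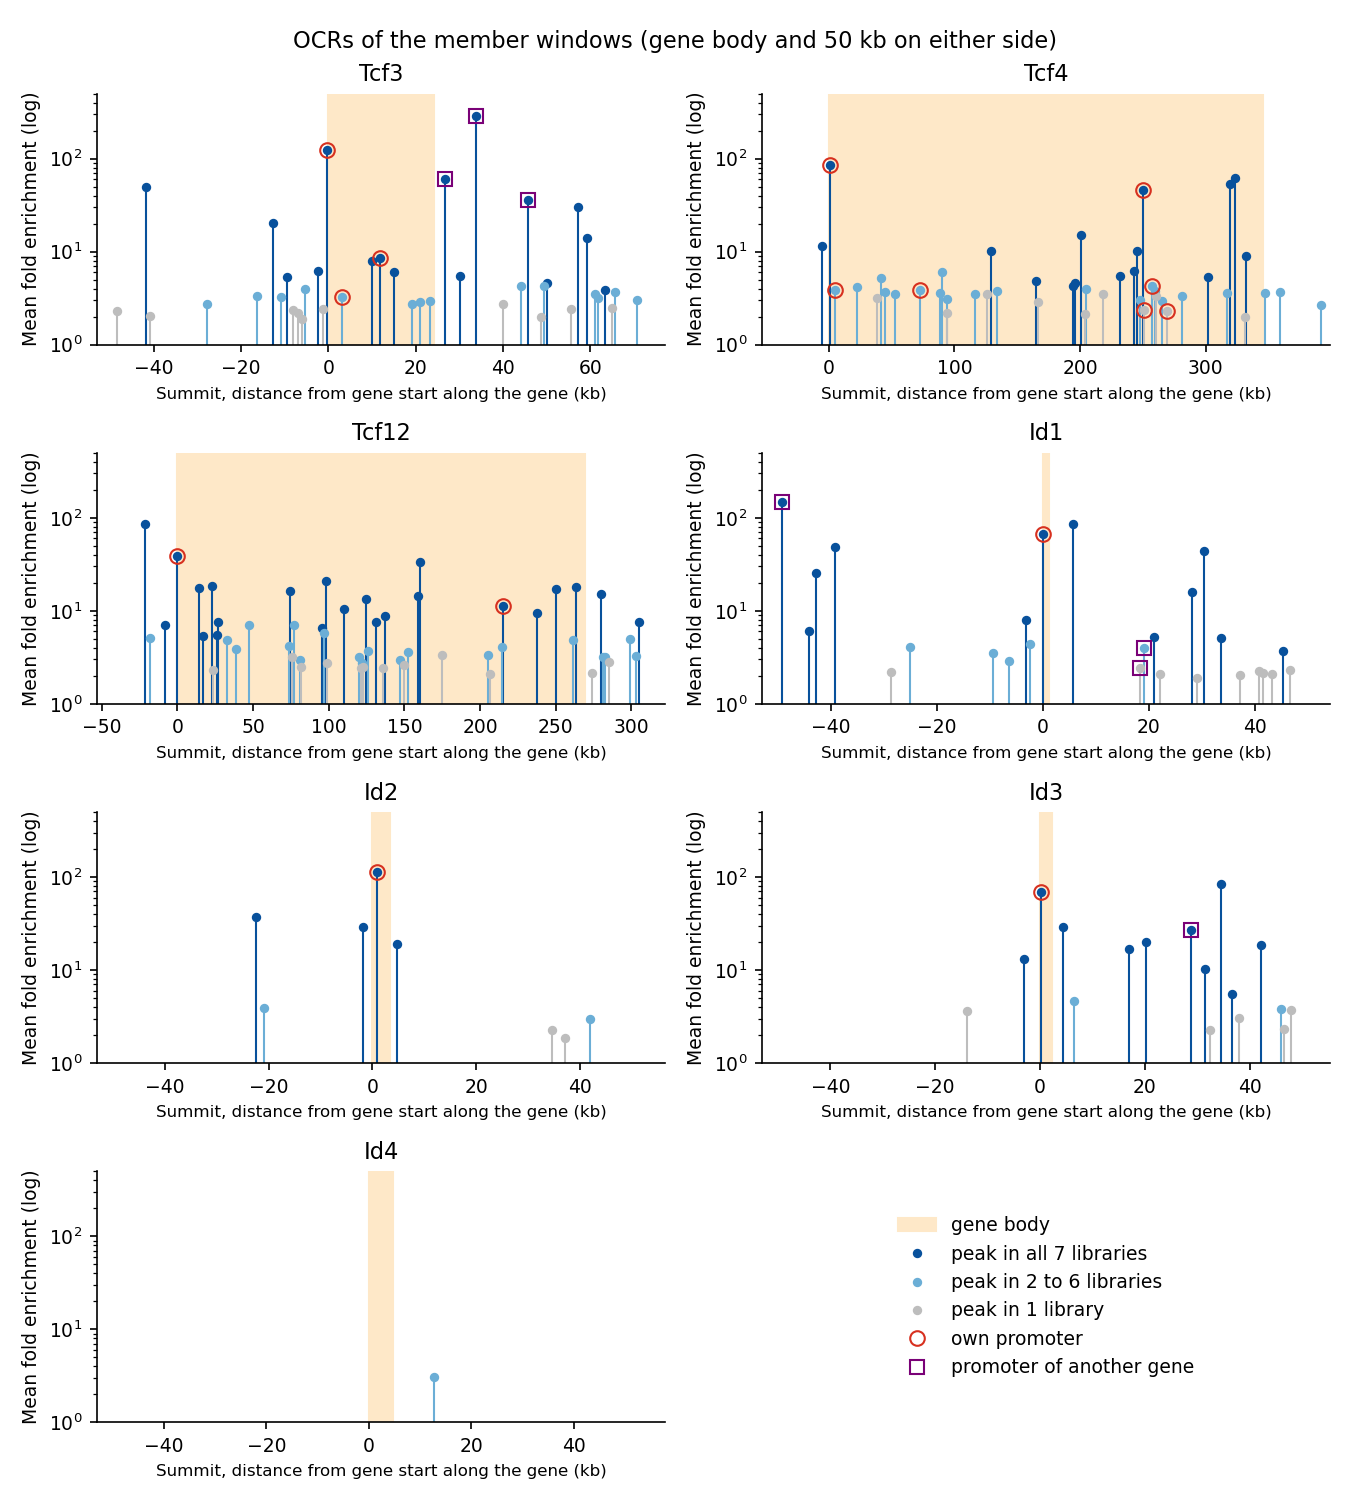
Mean fold enrichment (log axis) of each OCR against the distance of its summit from the 5′ end of the gene, along the gene, in 7 panels with the gene body shaded. Colours give library support, circles the gene's own promoter and squares the promoter of another gene, and the tallest symbols away from own promoters are the Mbd3 promoter near Tcf3 (286) and the Mcts2 promoter near Id1 (146).

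The strongest OCR outside all promoters was weaker than the promoter for Tcf3, Tcf4 and Id2 and stronger than it for Tcf12, Id1 and Id3. Each of the 6 comparisons had the same direction in 7 of 7 libraries (exact two-sided sign-flip permutation test, Benjamini-Hochberg adjusted p = 0.0156 over 6 genes). The strongest other OCR was taken from between 3 and 51 candidates per gene and library.

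For Tcf12 the stronger OCR lay 21.3 kb upstream of the gene start (chr9:72132163-72134132), 4612 bp from the nearest GENCODE start, that of the pseudogene Gm7863. Its fold enrichments were 108, 82.3, 84.6, 100.4, 60.5, 69.4 and 93.9, each above the promoter of the same library, by a factor of 2.18. Its summit sequence, shown above, was 78.1% G and C. The next OCRs of Tcf12 were intronic, at chr9:71950956-71951864 (33.9 ± 8.55), chr9:72013476-72014063 (21.1 ± 5.61), chr9:72088716-72089509 (18.5 ± 4.40) and chr9:71848334-71848926 (18.0 ± 6.03). Of the 42 intronic OCRs of Tcf12, 17 were in all 7 libraries, with mean fold enrichments from 5.39 to 33.9.

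For Id1 the stronger OCR began just past the end of the gene and was 5695 bp long (chr2:152737469-152743163), with its summit 5.66 kb from the start. Its values were 105, 73.9, 87.0, 103, 57.4, 76.6 and 99.9, above the promoter by a factor of 1.31. With promoters of 3 kb part of this region counts as promoter, and the comparison was no longer called. Further Id1 OCRs were those within H13 at chr2:152695971-152697535 (48.0 ± 7.89), 277 bp from a start of the lincRNA Gm26841, and in the intergenic stretch at chr2:152765927-152768101 (44.2 ± 10.4). H13 also held one at chr2:152692684-152694088 (25.6 ± 6.61).

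For Id3 the stronger OCR lay 34.6 kb downstream, inside E2f2 (chr4:136176432-136179139), a cell cycle transcription factor gene, 2678 bp from the nearest GENCODE start of E2f2. Its values were 118, 80.1, 85.9, 100.4, 55.2, 64.4 and 87.1, above the Id3 promoter by a factor of 1.21. The E2f2 promoter itself (chr4:136171577-136173958) had a mean of 26.8 ± 8.33. These lists do not link an OCR to the gene it acts on. Nearer to Id3, an OCR 4.41 kb from its start (chr4:136147457-136148578) had 29.1 ± 5.64.

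For Tcf4 the strongest other OCRs formed a pair near the 3′ end of the gene, 319 and 323 kb from its start. They lay at chr18:69661769-69663842 (53.7 ± 9.19) and chr18:69665270-69667216 (61.8 ± 10.1), both intronic. The promoter was higher than the stronger of them by a factor of 1.36. The next intronic OCR, at chr18:69543546-69544279, was at 15.1 ± 3.91. For Tcf3 the OCR 41.9 kb upstream (chr10:80474736-80476131) had values between 37.7 and 61.5, and the promoter exceeded it by a factor of 2.52. Its summit was 136 bp from the start of the RefSeq lncRNA Gm40716, which the promoters used here, of coding transcripts alone, did not include. The promoters of Mbd3 (286 ± 56.5), Uqcr11 (60.7 ± 14.1) and Mex3d (35.5 ± 5.80) also lay in the Tcf3 window, and the Mbd3 promoter was stronger than that of Tcf3.

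Id2 had 3 OCRs outside its promoter in all 7 libraries, at 1.75 kb upstream (29.1 ± 7.996), 22.4 kb upstream (37.0 ± 17.8) and 4.69 kb downstream of its start (19.2 ± 4.10). The promoter exceeded the strongest of them, taken in each library, by a factor of 2.90. The strongest was the OCR at 22.4 kb in libraries 1, 2 and 4 but the one at 1.75 kb in libraries 5, 6, 7 and 8. The factor therefore refers to no single OCR. The OCR at 22.4 kb (chr12:25118955-25120031) gave 53.5, 48.0 and 61.9 in libraries 1, 2 and 4, but 22.8, 14.5, 23.3 and 35.1 in libraries 5, 6, 7 and 8. The 3 libraries with VD in their peak names were therefore above the 4 with EtOH, in fold enrichment and in percentile. Of the 80 OCRs in all 7 libraries, it was the single one whose percentiles separated in this direction, beside 1.63% of all 66979 such OCRs of the series, and none separated in the other direction, beside 0.0224%. What the prefixes stand for is not given, and the difference was not tested.

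**Figure D3:**
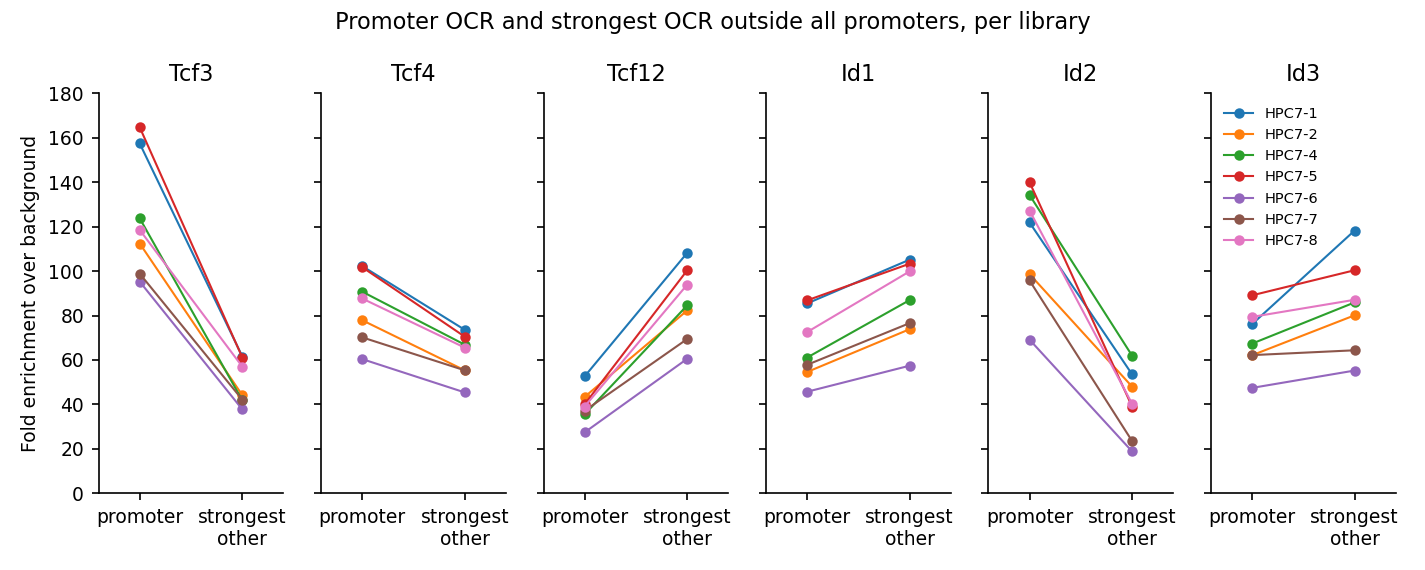
Fold enrichment over background of the promoter OCR and of the strongest OCR outside all promoters, joined within each of the 7 libraries. The lines fall for Tcf3, Tcf4 and Id2 and rise for Tcf12, Id1 and Id3 in all 7 libraries.

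Motif letters were counted within 100 bp of the summit on both strands. Of the 66 OCRs in all 7 libraries outside promoters, 46 (69.7%) held an E-box CANNTG, beside 70.4% of the 54413 OCRs of that kind in the series. The E-box CAGCTG, counted under the former too, was present in 13 OCRs (19.7%, beside 15.5% in the series). Another form, CAGGTG, likewise counted there, was found in 9 of the OCRs (13.6%, beside 12.6%). The palindrome CACGTG occurred in just 2 of them (3.03%, beside 3.33%). The letters of GATA factors were seen in 13 OCRs (19.7%, beside 30.5%), those of RUNX factors in 17 (25.8%, beside 30.5%) and those of ETS factors in 16 (24.2%, beside 29.0%). The end of an E-box (CTG) placed 8 or 9 letters before the GATA letters, the composite site of the Tal1 and Gata complex, was in 2 (3.03%, beside 4.16%). One of these was the weaker OCR of the Tcf4 pair and the other a flanking OCR of Id1 with a mean fold enrichment of 5.14. An E-box was in 17 of the 21 such OCRs around the Id genes (81.0%) and in 29 of the 45 around the E protein genes (64.4%), and within 250 bp of the summit in 20 (95.2%) and 40 (88.9%) of them. Of the 9 promoter OCRs in all 7 libraries, 4 held an E-box and 4 held the GATA letters, beside 48.1% and 11.1% of the shared promoter OCRs of the series. The 4 with the GATA letters were the 5′ promoter OCR of Tcf3 and the internal ones of Tcf3, Tcf4 and Tcf12. No promoter OCR of Id1, Id2 or Id3 held them, nor did the 5′ ones of Tcf4 and Tcf12. A match describes letters and not binding.

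Genes of the pathway were read in the same way, as counts beside the 54.5% of protein-coding genes with a promoter peak in all 7 libraries. Among 20 bHLH partners, 3 had such a peak. These were Lyl1 (266 ± 56.0), Tal1 (88.3 ± 12.8), which form dimers with E proteins in blood progenitors, and Neurog2 (15.9 ± 3.61), a neuronal factor. Within 1 kb, Nhlh1 and Tcf15 had one in some libraries, and the other 15, most of them factors of muscle, nerve or mesoderm, in none. With promoters of 3 kb, 5 partners had one in all 7 libraries, the additional ones being Tcf15 and the muscle factor Myod1, beside 59.1% of all protein-coding genes. Among 13 cofactors of the complex, 12 had a promoter peak in all 7 libraries, led by the corepressors Cbfa2t3 (184 ± 39.3) and Cbfa2t2 (172 ± 32.7) and the Ldb1-binding protein Ssbp2 (137 ± 23.6). Runx1t1, the ETO corepressor, had none.

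Of 10 genes that induce or carry the signal to Id genes, 8 had a promoter peak in all 7 libraries. Those with the highest values were the TGF-beta receptor Tgfbr1 (165 ± 27.7), the immediate early factor Egr1 (159 ± 28.9) and the BMP receptor Bmpr2 (125 ± 19.5). The BMP receptor Bmpr1a had one in 6 libraries (3.56 ± 0.606), and the signal transducer Smad9 in none. Of 15 E protein targets, 9 had a promoter peak in all 7 libraries. The highest were the cell cycle inhibitor Cdkn1a (162 ± 35.1), the surrogate light chain gene Igll1 (74.2 ± 17.7) and the Notch target Hes1 (64.0 ± 10.1). Lymphoid genes of the list fell on both sides. The recombinase genes Rag1 (6.26 ± 1.06) and Rag2 (8.91 ± 1.85) and the interleukin 7 receptor gene Il7r (21.4 ± 4.55) had a promoter peak in all 7 libraries, while the B cell genes Ebf1, Pax5, Cd79a and Vpreb1 and the T cell gene Cd3e had none. Ptcra had one in 1 library (1.97). With promoters of 3 kb Vpreb1 had one in all 7 and Ptcra in 6.

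**Figure D4:**
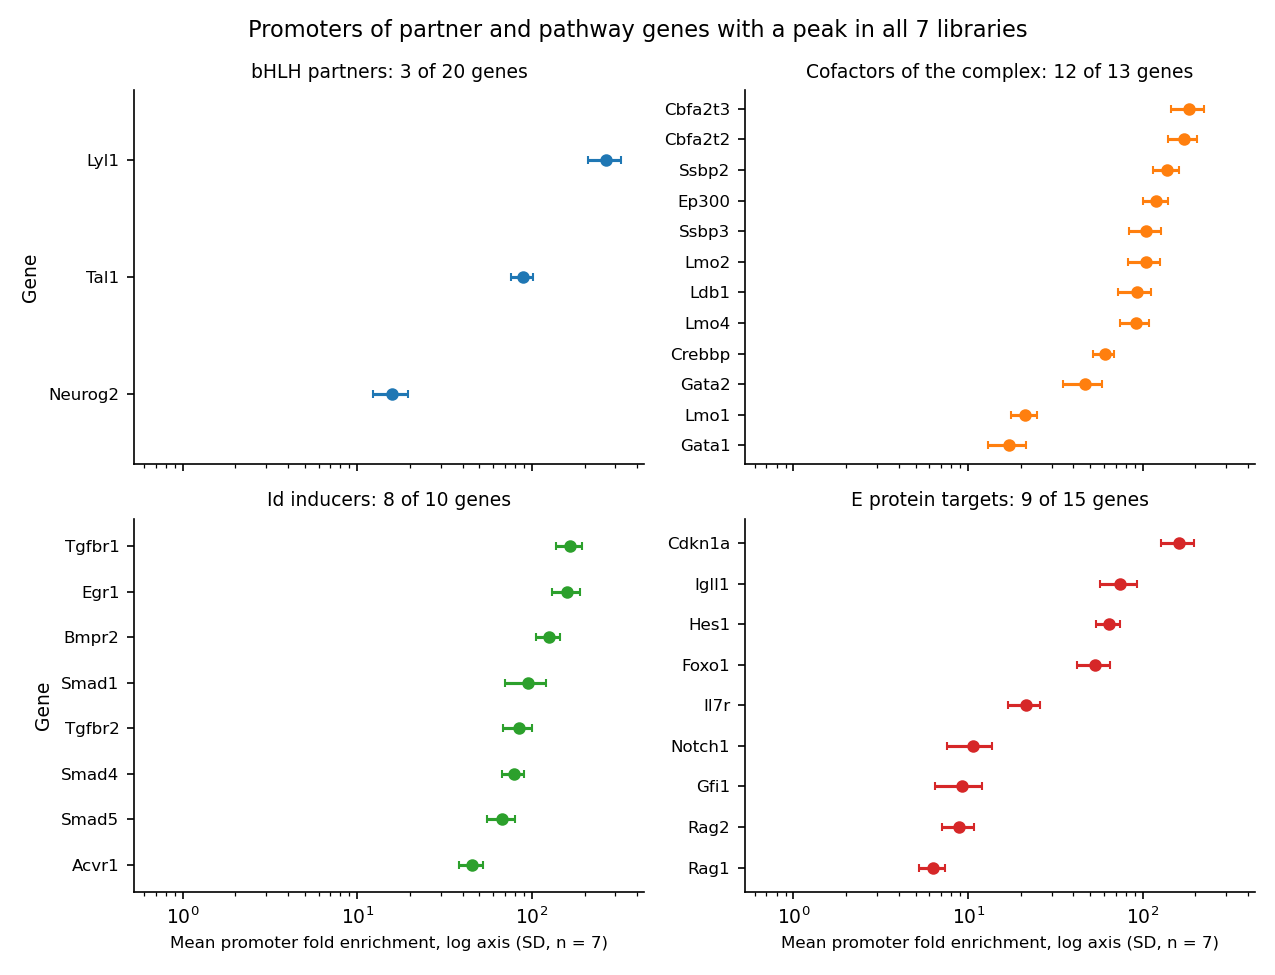
Mean promoter fold enrichment (log axis) with the SD over 7 libraries for the genes of 4 lists that had a promoter peak in all 7 libraries. The numbers of such genes were 3 of 20 bHLH partners, 12 of 13 cofactors, 8 of 10 Id inducers and 9 of 15 E protein targets.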

How the data were processed

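ATAC-seq lists of 7 HPC7 cultures were used. Upstream, Cutadapt trimming, BWA-mem alignment to mm10 and MACS2 peak calling per library were done by the authors, with versions and options not given in the sources used here. Each deposited peak has a fold enrichment (a ratio), a p-value and a q-value as -log10, a summit position and a score that follows its q-value. Fold enrichments were whole multiples of 1 step per library (100% within 0.05 of a step), from which summit and background reads were recovered. The precision of a value is its SD over 7 libraries, which may be technical in part.

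Peaks were merged with Python 3.11.15 and pandas 2.3.3, tests used numpy 2.4.6 with scipy 1.17.1, plots matplotlib 3.10.9, and the merge was checked against bedtools 2.31.1. Starts came from GENCODE M21, exons also from RefSeq, and sequences from GRCm38.p6, within whose chromosome lengths all peaks lay. The code was also checked on simulated data with known answers, and all reported tests used the deposited lists. The members and gene lists were chosen with earlier results of these data known. The OCRs named were each gene's promoter OCRs and up to 5 others with the highest mean fold enrichment among those in all 7 libraries, with the single Id4 OCR and the Id1 OCR with a composite motif match named beyond that rule, after their values were seen. In each gene list the 3 highest and, if 5 or fewer, all genes without a peak were named. Nhlh1, Tcf15, Myod1, Bmpr1a, Rag1, Rag2, Il7r and Ptcra were named beyond that, after their values were seen. Alternatives were 3 kb promoters, 5′-most starts, a -log10 q of at least 5, equal numbers of peaks, flanks of 25 and 100 kb, 50% reciprocal overlap, 250 bp for motifs, and each library left out. For the gene lists, alternatives were chosen after seeing the data.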

Additional observations from a re-analysis of the deposited data

Results flagged for a closer look

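Values of the 7 libraries were examined for a library that stood apart from the other 6 by Dixon's 95% criterion, in 84 sets of values, of which 3 stood out. Chance alone gives about 1 in 20 such sets if they are separate. These were not, since a main promoter enters both as the gene's promoter and as an OCR. Ratios of different pairs also share promoters, so the rate is a rough guide only. The log2 ratio of the Id2 to the Id3 promoter was 0.996 in HPC7-4, and the next highest library was at 0.681. The log2 ratio of the Id3 to the Id1 promoter was -0.167 in HPC7-1, the single library with Id1 higher, and the next lowest was at 0.0371. HPC7-1 held 27 of its own peaks in the Id1 window, before merging across libraries, and the next highest library held 20. HPC7-1 also had the longest peak list and the highest background in reads.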

How the results depend on the processing

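The number of promoter pairs called was 13 with percentiles and with 3 kb promoters, and 13 to 14 with each library left out. The additional pair was Id3 to Id1 without HPC7-1, the only library in which Id1 was the higher. The E protein minus Id difference stayed negative and was not called with percentiles, 3 kb promoters, 5′-most starts, the stricter q or any library left out, and lay between -0.0378 and -0.0205 with each library left out. Id3 to Id1 had a log2 ratio of -0.0463 with 3 kb promoters (adjusted p = 0.641, exact permutation test). When promoters of other genes were admitted, the log2 ratio of promoter to strongest other OCR of Tcf3 was -1.20 (exact permutation test, adjusted p = 0.0156), since the Mbd3 promoter was then the strongest. In the same setting the log2 ratio of Id1 went from -0.385 to -1.16 (exact permutation test, adjusted p = 0.0156). With 3 kb promoters that of Id1 was -0.000861, since part of its downstream region then counted as promoter. Leaving out each library changed no call of promoter against strongest other OCR. Over windows of 250 bp, which hold more letters by construction, the share of OCRs outside promoters was 31.8% for CAGCTG (28.8% in the series), 39.4% for CAGGTG (29.6%), 90.9% for CANNTG (93.95%), 51.5% for GATAA (54.3%), 39.4% for GGAAGT (43.5%), 36.4% for TGTGGT (47.0%) and 6.06% for CACGTG (7.30%). The composite site was then above the series (7.58%, beside 6.33%), where at 100 bp it was below. With 3 kb promoters 5 bHLH partners had a peak in all 7 libraries, beside 59.1% of protein-coding genes. The count of 193 OCRs ranged from 146 to 258 over the 2 other flanks, the stricter q and each library left out. That of 80 in all libraries ranged from 67 to 89 over the stricter q, equal numbers of peaks, 50% reciprocal overlap and each library left out, and was not computed for other flanks. No paired analysis was possible because the 7 libraries form 1 group, which leaves no groups to pair by replicate number, while genes and OCRs were compared within each library. Of the 48 OCRs found in 1 library, 43 were in HPC7-1, which had the longest peak list and the highest background in reads. The share of HPC7-1 among such OCRs of the whole series was not computed, and the part of depth in the count of 43 was not tested.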
